A study of Mus musculus with 8 samples.

Results

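The 10 genes of BMP and hedgehog signalling described here were followed in bulk RNA-seq of small intestinal crypts and villi. They are the epithelial hedgehog ligand Ihh, the BMP ligands Bmp2, Bmp4 and Bmp7, the type I BMP receptor Bmpr1a, the BMP target genes Id1, Id2 and Id3, and the inhibitory SMAD genes Smad6 and Smad7. They were chosen by symbol for their place in the pathway. Of the 13028 genes listed in either table, all 10 were in the villus table (12701 genes) and 9 were in the crypt table (11554 genes), which does not list Bmp4.

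In the small intestine, differentiated epithelial cells secrete Indian hedgehog, which acts on Patched and Smoothened in the mesenchyme beneath and keeps up a BMP-producing stroma. BMP ligands bind receptor pairs such as BMPR1A and BMPR2, SMAD1 and SMAD5 are phosphorylated and enter the nucleus with SMAD4, and Id genes as well as the feedback inhibitors Smad6 and Smad7 are transcribed. BMP activity is known to be low at the crypt base, where antagonists protect the stem cells, and to rise towards the villus, where it restrains proliferation.

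The control mice (Ctrl) are labelled wild type. In the Gli1-PtgscKO mice, Gli1-CreERT2, a tamoxifen-inducible Cre driven from Gli1 in mesenchymal cells, deletes the floxed cyclooxygenase genes Ptgs1 (COX1) and Ptgs2 (COX2). All mice were on the C57BL/6 background, and they were sampled 1 month after tamoxifen. The labels name Gli1-CreERT2 with a Rosa26-tdTomato reporter for the controls, whereas the study describes controls with the floxed alleles and no Cre, and ages and the number of animals in a library are not given in the sources used here. Each genotype and tissue has 2 labelled libraries, but the Ctrl villus columns were identical for all 12701 genes and were counted as 1 library, so 7 libraries are distinct. The values are gene counts divided by the DESeq2 size factor of the library, called normalized counts here.

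By the spacing of the values, the crypt libraries held 16853017 to 21121714 reads and the villus libraries 13477600 to 15751024 on the listed genes. The tissue labels were checked against stem cell and enterocyte markers, all listed in both tables. All 8 stem cell markers were lower in Ctrl villi than in Ctrl crypts by more than 1 on the log2 scale, without overlap. So were 51.6% of the genes in both tables. Of 10 enterocyte markers, 8 were higher by that much, as were 9.01% of those genes, and the other 2 lay below both Ctrl crypt libraries. Ptgs1 had 365.5 and 163.8 normalized counts in Ctrl crypts and 178.4 and 198.9 in Gli1-PtgscKO crypts, which overlap, and Ptgs2 and Gli1 are not listed, so the deletion, which is in mesenchymal cells, was not checked by these values. A pair of libraries stood apart by transcript length. In replicate 1 of the Gli1-PtgscKO crypts, the 10% of all genes with the shortest transcripts had a median 0.89 above the other 3 crypt libraries on the log2 scale, and the 10% with the longest had a median of -0.69. In the Ctrl villi the same medians against the Gli1-PtgscKO villi were 0.79 and -0.85. Differences corrected for transcript length, by a smooth curve of log2 value on length taken off each library, are therefore given for the members beside the uncorrected ones. The levels are given without this correction.

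Since SMADs act at promoters, those of the members were looked up. RefSeq windows (GRCm38.p6) matched 6 of the 10 genes, namely Ihh, Bmp4, Bmpr1a, Id2, Id3 and Smad6. The 250 bases before the start were searched on both strands for GGCGCC, a GC-rich element bound by BMP-activated SMADs, and for CAGAC, the SMAD box, whose other strand reads GTCTG. The former was found in 9.59% of all 32851 promoters and the latter in 42.2%. Bmpr1a and Id2 held GGCGCC, 198 and 231 bases before the start, Ihh held GTCTG 41 bases before it, and Id3 held CAGAC at 167 and GTCTG at 68 bases, inside an annotated exon. Neither was in the windows of Bmp4 and Smad6. The stretches of the first 3 that lie outside annotated exons are given in lower case on the gene's strand, with the match in capitals. They are the Ihh promoter at chr1:74951673-74951822, the Bmpr1a promoter at chr14:34502688-34502796 and the Id2 promoter at chr12:25096254-25096342, all read from the minus strand. The Ihh stretch adjoins the 5′ end of the gene, whereas those of Bmpr1a and Id2 lie inside the annotated gene, before the start of a shorter transcript.
Ihh: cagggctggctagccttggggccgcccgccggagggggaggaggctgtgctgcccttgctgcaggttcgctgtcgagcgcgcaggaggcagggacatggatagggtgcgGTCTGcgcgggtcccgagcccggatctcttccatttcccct
Bmpr1a: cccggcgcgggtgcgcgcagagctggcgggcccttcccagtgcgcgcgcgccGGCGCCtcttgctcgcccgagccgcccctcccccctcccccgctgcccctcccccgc
Id2: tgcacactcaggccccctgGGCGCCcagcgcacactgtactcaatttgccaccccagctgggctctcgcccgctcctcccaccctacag

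Per length of the longest transcript, the BMP targets Id3 and Id1 led the order of levels in both tissues. In crypts, the median over 4 libraries was 55.1 RPKM (reads scaled to a common library size and transcript length) for Id3 and 43.7 for Id1, followed by 25.4 for Bmpr1a, 24.7 for Ihh, 16.0 for Id2, 7.07 for Smad6, 5.46 for Bmp7, 5.0 for Smad7 and 3.48 for Bmp2. The ranges of Id3 and Id1, of Bmpr1a and Ihh, and of Bmp7 and Smad7 overlapped, so their order is not fixed, whereas the other neighbours were apart in these libraries. Bmpr1a, at 17.4 to 27.3, also overlapped Id2, at 15.3 to 23.4, which is not its neighbour by median. In villi, the median over 3 libraries was 81.5 RPKM for Id3 and 81.4 for Id1, then 26.5 for Ihh, 21.2 for Id2, 8.38 for Bmpr1a, 7.92 for Smad6, 7.32 for Smad7, 4.09 for Bmp2, 0.46 for Bmp4 and 0.45 for Bmp7. There, Id3 and Id1, Ihh and Id2, Bmpr1a and Smad6, Smad6 and Smad7, and Bmp4 and Bmp7 overlapped, and Bmpr1a also overlapped Smad7 and Bmp2. By these medians over both genotypes, Bmpr1a stood beside Ihh in crypts and beside the inhibitory SMADs in villi. In Ctrl villi alone it had 3.55 RPKM, between Smad7 at 4.76 and Bmp2 at 3.12, and in Gli1-PtgscKO villi 10.1 and 8.38.

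**Figure D1:**
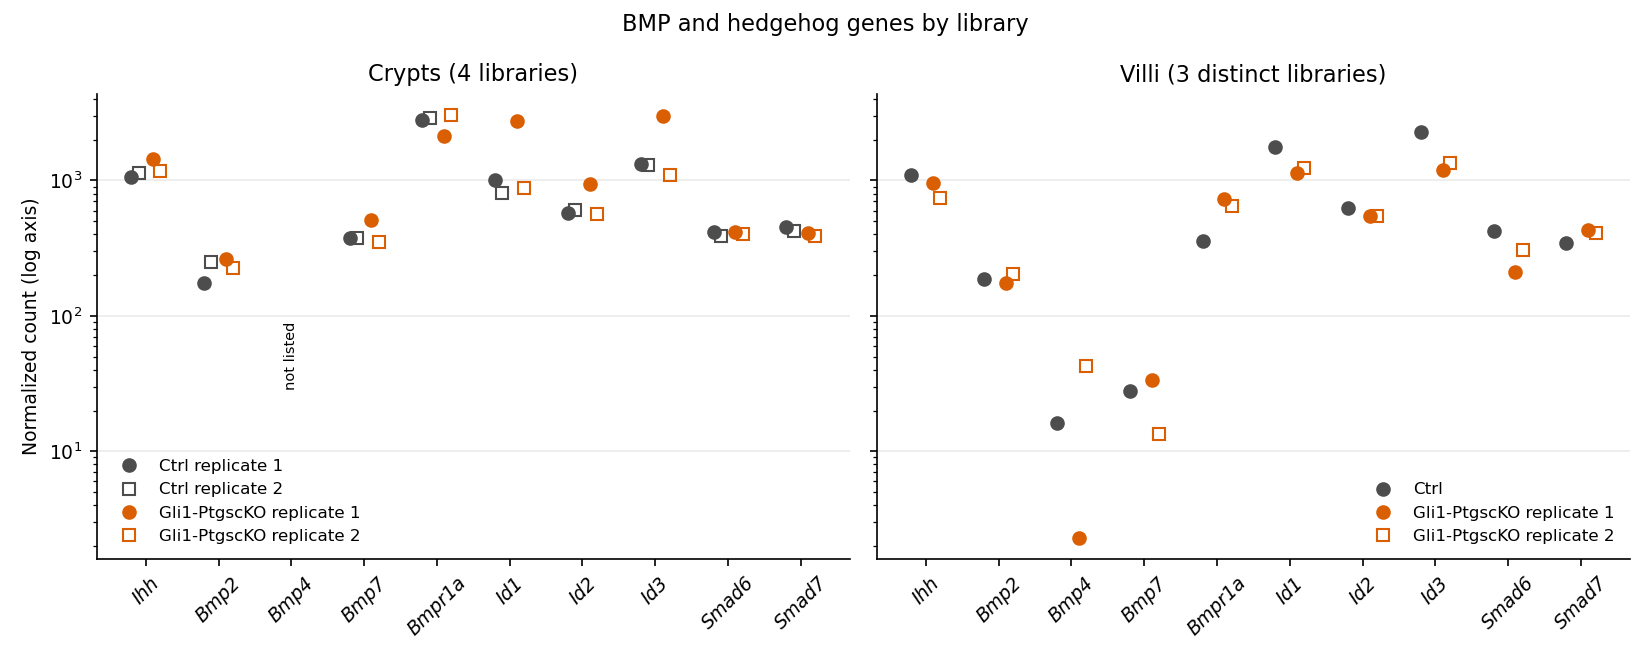
Normalized counts (log axis) of the 10 genes in each distinct library of crypts (left) and villi (right), each point 1 library. Among crypts, Id1, Id2 and Id3 are highest in replicate 1 of Gli1-PtgscKO, Bmpr1a and Bmp7 are low in villi, and Bmp4 has 2.29 to 42.5 normalized counts in villi.

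The first comparison asked whether the pathway differed between Gli1-PtgscKO and Ctrl crypts. No member passed the study's threshold (limma, an unadjusted p under 0.01 with a log2 fold change beyond 1 in either direction), which 0.182% of the 11554 genes did. At that threshold 20 genes were higher and 1 was lower, or 18 and 4 with scaling by library size alone. No gene of the table, and so no member, passed an adjusted p of 0.05 (limma), beside 0 genes with edgeR and 11 with DESeq2 on recovered reads, none of them a member, and with 73 genes (0.632%) under 0.05 before adjustment in limma, none of them a member. The 9 listed members had a median log2 fold change of 0.21, and the median over all genes was -0.01. In 1 member both Gli1-PtgscKO libraries lay above both Ctrl libraries, as in 9.73% of all genes, and in 1 both lay below, as in 11.3%. With 2 libraries in each group, the smallest two-sided p of an exact permutation test is 0.33.

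Ihh, the hedgehog ligand made by the epithelium (chromosome 1, 74945315 to 74951672, GRCm38), had 1065 and 1137 normalized counts in Ctrl crypts and 1451 and 1167 in Gli1-PtgscKO crypts. Both Gli1-PtgscKO values were above both Ctrl values, replicate 2 only by 0.08 on the log2 scale over the Ctrl mean. The log2 fold change was 0.24 ± 0.25 (SE, n = 2 per group; limma adjusted p = 1.00), and 0.16 after the correction for length.

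Of the BMP ligands, Bmp2, which is made by villus epithelium and stroma, had 176.2 and 249.3 normalized counts in Ctrl crypts and 262.3 and 224.6 in Gli1-PtgscKO crypts. Bmp7 had 373.9 and 374.5 in Ctrl and 514.1 and 353.1 in Gli1-PtgscKO. In both genes the groups overlapped. The log2 fold changes were 0.21 ± 0.35 for Bmp2 and 0.19 ± 0.31 for Bmp7 (SE, n = 2 per group; limma adjusted p = 1.00 for both). After the correction for length they were 0.22 and 0.21. Bmpr1a, the receptor, had 2779 and 2883 normalized counts in Ctrl and 2121 and 3064 in Gli1-PtgscKO. Replicate 1 of the Gli1-PtgscKO crypts was the lowest of the 4 libraries and replicate 2 the highest. Its log2 fold change of -0.15 ± 0.27 (SE, n = 2 per group; limma adjusted p = 1.00) became 0.02 after the correction for length.

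The Id genes encode helix-loop-helix proteins that hold back differentiation factors and respond early to BMP. Id1 had 1010 and 810.2 normalized counts in Ctrl crypts and 2748 and 873.9 in Gli1-PtgscKO crypts. Id3 had 1332 and 1299 in Ctrl and 2977 and 1093 in Gli1-PtgscKO. Id2 had 579.1 and 600.4 in Ctrl and 944.2 and 566.6 in Gli1-PtgscKO. All 3 were highest in replicate 1 of the Gli1-PtgscKO crypts, while replicate 2 lay within or below the Ctrl values. Against the Ctrl mean, replicate 1 was 1.60 higher for Id1, 1.18 for Id3 and 0.68 for Id2 on the log2 scale, and replicate 2 differed by -0.05, -0.27 and -0.06. The log2 fold changes of the groups were 0.78 ± 0.51 for Id1, 0.46 ± 0.46 for Id3 and 0.31 ± 0.32 for Id2 (SE, n = 2 per group; limma adjusted p = 1.00 for each).

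The Id values thus rest on 1 library. Without replicate 1 of the Gli1-PtgscKO crypts the log2 fold changes were -0.05 for Id1, -0.27 for Id3 and -0.06 for Id2. Without replicate 2, Id1 and Id3 were the members past the study's threshold (1.60 and 1.18; limma adjusted p = 0.0055 and 0.0064, against 0.95 to 1.00 in the other alternatives), in a fit that takes the lone Gli1-PtgscKO library to vary like the Ctrl libraries and that called 593 genes higher and 288 lower. With their transcripts of 1160 and 1278 bases, Id1 and Id3 belong to the 10% of genes with the shortest transcripts, whose median in replicate 1 was 0.89 above the other 3 libraries. Against the same 3 libraries Id1 was 1.62 higher, Id3 1.27 and Id2, of 1969 bases, 0.70, where genes of like length had a median of 0.51. The correction for length left log2 fold changes of 0.47 for Id1, 0.18 for Id3 and 0.17 for Id2 (limma adjusted p = 1.00 for each). The part of transcript length in the values of replicate 1 was not tested further.

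**Figure D2:**
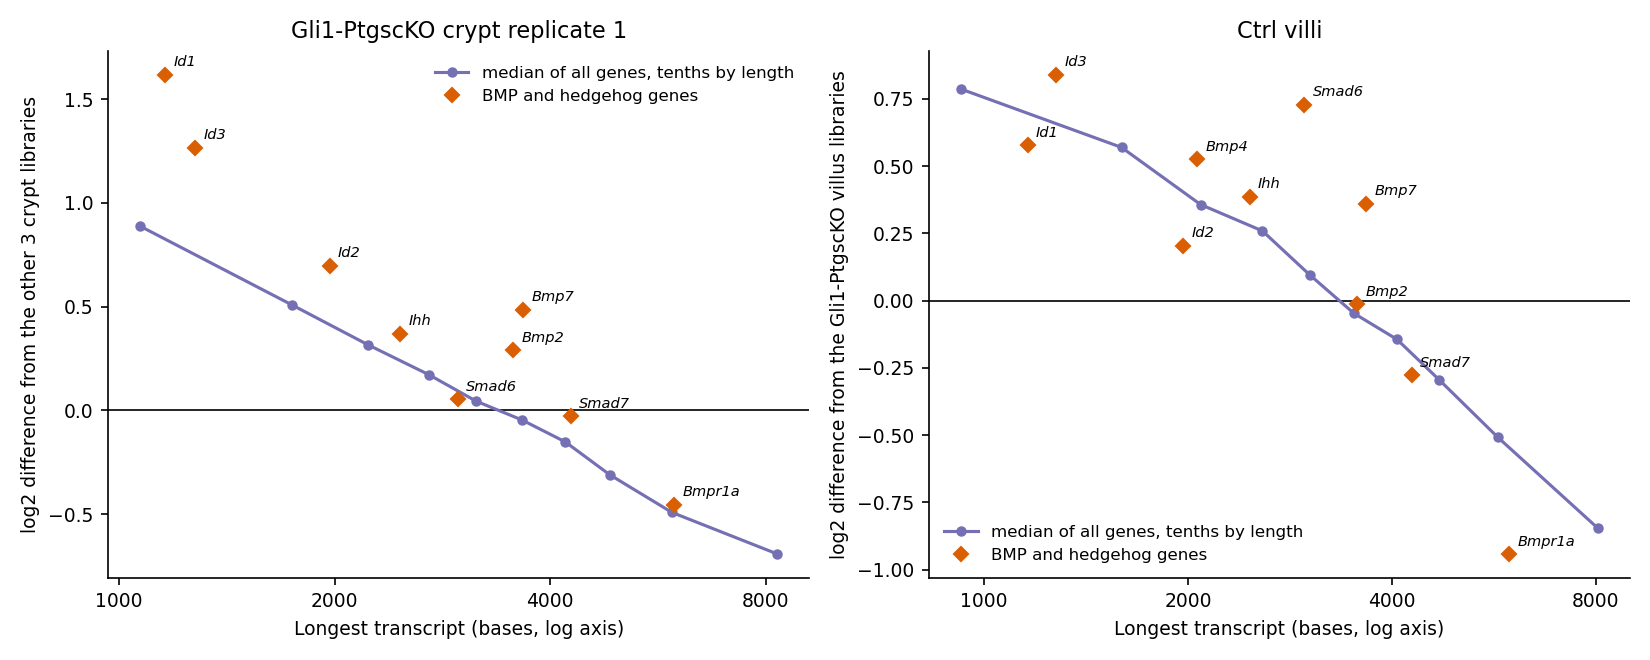
Log2 difference of 1 library from the others of its tissue against the length of the longest transcript (bases, log axis), for replicate 1 of the Gli1-PtgscKO crypts (left) and the Ctrl villi (right). The line joins the medians of all genes in 10 bins by length, from 0.89 to -0.69 and from 0.79 to -0.85, and the diamonds are the BMP and hedgehog genes. Id1, Bmp7 and Id3 lie farthest above the line on the left and Smad6 on the right.

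The feedback inhibitors did not pass the test in crypts. Smad6, which blocks BMP receptor signalling, had 413.2 and 390.7 normalized counts in Ctrl and 418.6 and 404.5 in Gli1-PtgscKO, a log2 fold change of 0.03 that became -0.04 with scaling by library size alone. Smad7, which blocks both BMP and TGF-beta receptors, had 455.4 and 423.1 in Ctrl and 412.3 and 386.6 in Gli1-PtgscKO. Both Gli1-PtgscKO values of Smad7 were below both Ctrl values, with a log2 fold change of -0.14 ± 0.27 (SE, n = 2 per group; limma adjusted p = 1.00). After the correction for length the log2 fold changes were 0.005 for Smad6 and -0.07 for Smad7.

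Of the 71 other pathway genes looked up, 38 were listed in crypts. None of the 38 passed the study's threshold in either direction, none had an unadjusted limma p under 0.05, and their median log2 fold change was -0.05. Both Gli1-PtgscKO libraries were above both Ctrl libraries in 2 of the 38 and below in 3, beside 9.73% and 11.3% of all genes. Ptch1, the hedgehog receptor and a hedgehog target, had 666.2 and 683.2 normalized counts in Ctrl and 354.6 and 683.9 in Gli1-PtgscKO. Bmpr2, the type II receptor, had 1206 and 1140 in Ctrl and 705.0 and 1150 in Gli1-PtgscKO. Both have long transcripts, of 10383 and 12899 bases, and both were low in replicate 1 alone. The forkhead genes Foxf1, Foxf2 and Foxl1, hedgehog targets of the mesenchyme, were listed in neither table. The crypt preparations held mesenchymal RNA, with all 10 mesenchymal markers listed and a summed level of 19197 and 10060 normalized counts in Ctrl and 12037 and 16478 in Gli1-PtgscKO. None of the 7 endothelial markers was listed in crypts.

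The same genotypes were then compared in villi. With 1 Ctrl library there is no test, and a difference between conditions cannot be told apart from 1 between libraries. A gene was taken as past the fold when the mean log2 difference was over 1 and both Gli1-PtgscKO libraries lay on that side of Ctrl. No member was past the fold, against 13.4% of the 12701 genes higher and 9.4% lower (1705 and 1194 genes, or 3208 and 296 with scaling by library size alone, which put Bmpr1a past the fold). Both Gli1-PtgscKO libraries lay below Ctrl in 5 of the 10 genes and above it in 2, against 44.2% and 43.7% of all genes. The median log2 difference was -0.37 for the members and -0.01 for all genes.

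In villi, all 3 Id genes had both Gli1-PtgscKO libraries below Ctrl. Id3 had 2287 normalized counts in Ctrl and 1203 and 1356 in Gli1-PtgscKO, a log2 difference of -0.84. Id1 had 1765 in Ctrl and 1136 and 1230 in Gli1-PtgscKO, a difference of -0.58. Id2 had 629.0 in Ctrl and 549.0 and 542.8 in Gli1-PtgscKO, a difference of -0.20. The summed level of the 3 genes was 4681 in Ctrl and 2889 and 3128 in Gli1-PtgscKO. These differences became smaller or turned when transcript length was taken into account. After the correction Id1 stood at 0.07, Id2 at 0.17 and Id3 at -0.22 on the log2 scale. Scaling by library size alone shifted the median over all genes to 0.42, and on that scale they were -0.15, 0.23 and -0.41.

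Of the 7 members whose genotypes did not overlap in villi, Smad6 changed least with the correction for length. It had 421.6 normalized counts in Ctrl and 211.0 and 306.2 in Gli1-PtgscKO. Both Gli1-PtgscKO libraries were below Ctrl, by -0.995 and -0.46 on the log2 scale. The mean difference was -0.73, or -0.64 after the correction for length and -0.30 with scaling by library size. Smad7 had 344.0 in Ctrl and 427.4 and 407.6 in Gli1-PtgscKO, a difference of 0.28 that fell to 0.07 with the correction.

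Before the correction for length, Bmpr1a showed the largest difference among the members whose villus libraries did not overlap, and after it Smad6 was farther from 0, at -0.64. Bmpr1a had 356.8 normalized counts in Ctrl villi and 724.0 and 650.0 in Gli1-PtgscKO villi, a log2 difference of 0.94, with replicate 1 at 1.02 and replicate 2 at 0.86. Its transcript of 5956 bases is among those of 5127 to 6612 bases, for which the Ctrl villi had a median of -0.51 against the Gli1-PtgscKO villi. The corrected difference was 0.40, and scaling by library size gave 1.37. Ihh had 1104 normalized counts in Ctrl and 959.5 and 742.7 in Gli1-PtgscKO. Both were below Ctrl, with a mean difference of -0.39, which became -0.16 with the correction and 0.05 with scaling by library size.

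The BMP ligands overlapped between the genotypes in villi. Bmp2 had 187.7 normalized counts in Ctrl and 175.1 and 204.8 in Gli1-PtgscKO, a log2 difference of 0.01, or -0.04 after the correction for length. Bmp4, a ligand of the villus stroma, had 14 reads in Ctrl, with an exact 95% Poisson interval of 7.65 to 23.5, and 3 (0.62 to 8.77) and 44 (32.0 to 59.1) in Gli1-PtgscKO. The 2 Gli1-PtgscKO libraries thus differed from each other beyond counting error, on either side of Ctrl. Bmp7 had 24 reads (15.4 to 35.7) in Ctrl and 44 (32.0 to 59.1) and 14 (7.65 to 23.5) in Gli1-PtgscKO. These intervals cover counting error only, and the reads are not scaled for depth. In normalized counts, Bmp4 had 16.2 in Ctrl and 2.29 and 42.5 in Gli1-PtgscKO, and Bmp7 had 27.8, 33.6 and 13.5. The mean log2 differences were -0.52 for Bmp4 and -0.36 for Bmp7, or -0.18 and -0.44 after the correction for length. The villus libraries also held other cells. Of the 9 listed mesenchymal markers the summed level was 2494 normalized counts in Ctrl and 2427 and 2187 in Gli1-PtgscKO. For the 3 listed smooth muscle markers it was 1026 in Ctrl and 1583 and 1597 in Gli1-PtgscKO, though 2 of them lay below Ctrl and 1 above. For the 2 of 7 endothelial markers that were listed, Pecam1 and Egfl7, it was 68.3 in Ctrl and 27.5 and 56.0 in Gli1-PtgscKO. Egfl7 had 6.12 and 4.83 in Gli1-PtgscKO, under 8.82, the smallest mean of any gene listed in villi. For the 10 immune markers it was 28438 in Ctrl and 9192 and 10283 in Gli1-PtgscKO, with 6 past the fold lower and 1 higher. No listed marker was at 0, fewer cells of a type and less RNA per cell cannot be told apart in these preparations, and the part of these cells in the values of the members was not tested.

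**Figure D3:**
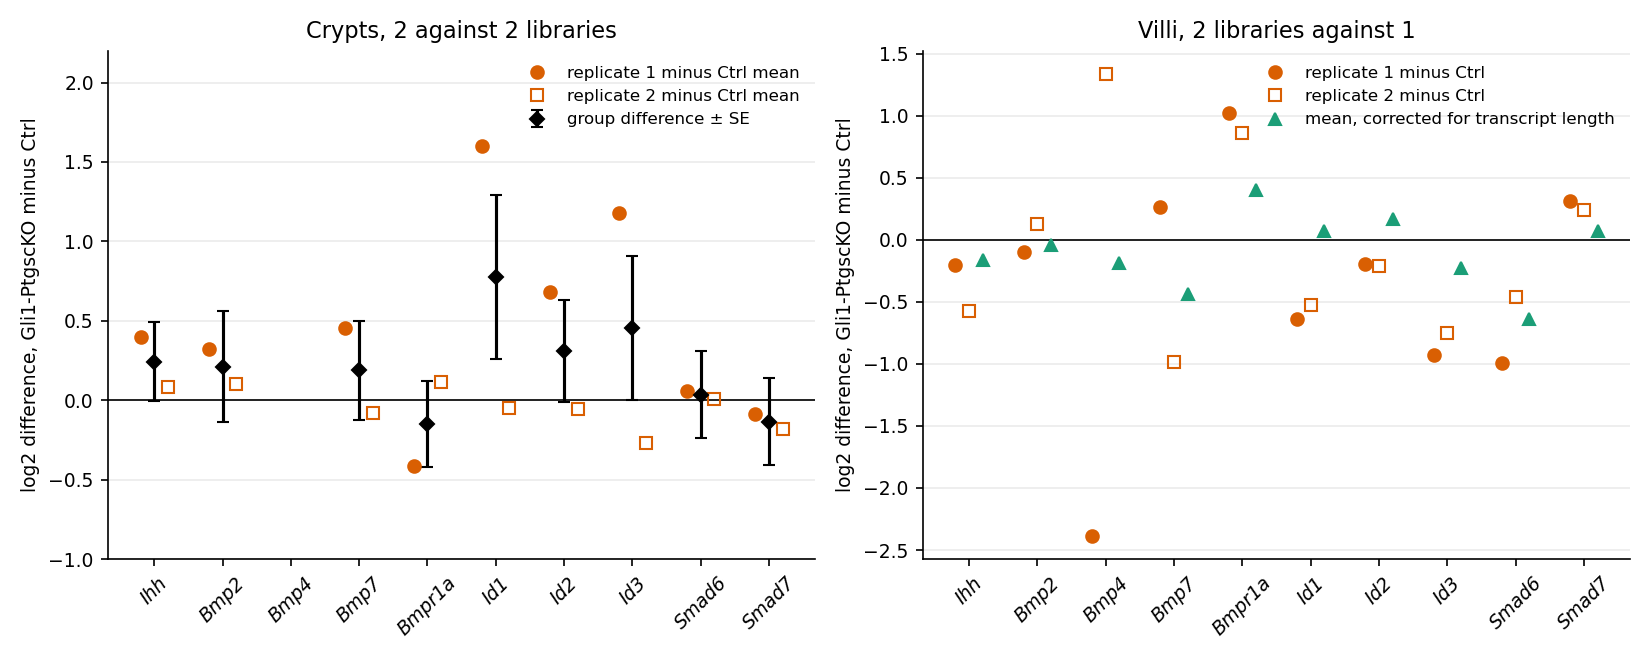
Log2 difference of normalized counts, Gli1-PtgscKO minus Ctrl, of the 10 genes in crypts (left, group difference with its SE as diamonds and each Gli1-PtgscKO library against the Ctrl mean) and in villi (right, each Gli1-PtgscKO library against the 1 Ctrl library, and the mean corrected for transcript length as triangles). In crypts Id1 and Id3 are at 1.60 and 1.18 in replicate 1 and at -0.05 and -0.27 in replicate 2, and in villi the correction moves Id1 from -0.58 to 0.07.

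Among the other pathway genes, 34 were listed in villi. Past the fold, 5 were higher and 2 were lower in Gli1-PtgscKO, beside 13.4% and 9.4% of all genes, and their median log2 difference was 0.31. Id4, a further Id gene, was higher at 4.63 normalized counts in Ctrl and 13.0 and 17.4 in Gli1-PtgscKO, which is few reads. Its Ctrl value lay under 8.82, the smallest mean of any gene listed in villi. Its listing thus rests on the Gli1-PtgscKO values, and nothing is drawn from its place among the higher genes. Ptch1 was higher, with 33.6 in Ctrl and 84.9 and 68.6 in Gli1-PtgscKO, and so was Bmpr2, with 126.3 against 295.1 and 227.0. Both belong to the 10% of genes with the longest transcripts, which had a median of -0.85 in Ctrl villi, and their log2 differences of 1.16 and 1.03 became 0.15 and -0.14 after the correction for length. Those of Id4, Bambi and Gas1 were 1.51, -1.10 and -1.28, and 1.39, -1.49 and -1.18 after it. Acvr2a and Cdon, named here after their values were seen, were the other 2 higher genes. Bambi, a pseudoreceptor that dampens BMP signalling, was lower, with 38.2 in Ctrl and 20.6 and 14.5 in Gli1-PtgscKO. Gas1, a hedgehog co-receptor, was lower at 46.3 in Ctrl and 23.7 and 14.5 in Gli1-PtgscKO.

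The third comparison followed the members from crypt to villus within a genotype, on RPM, the reads of a gene scaled to a common total over the 11227 genes in both tables. The tables were normalized separately and Ctrl villi are 1 library, so these values are a description. On this scale the median of all genes was -1.06 in Ctrl and -0.56 in Gli1-PtgscKO, and mt-Co1 alone took 10.6% to 15.4% of the villus reads, so a member near 0 lay above most genes. Past the fold (a log2 difference over 1, with no overlap of the libraries), 1 member was higher and 2 were lower in Ctrl villi, against 9.01% and 51.6% of genes. In Gli1-PtgscKO villi, 2 were lower and none was higher, against 30.5% and 7.54%. After the correction for length, 3 were higher (Bmp2, Smad6 and Smad7) and 2 lower (Bmp7 and Bmpr1a) in Ctrl villi, beside 20.7% and 20.2% of genes, and 1 was higher (Smad7) and 1 lower (Bmp7) in Gli1-PtgscKO villi, beside 14.9% and 13.4%. Scaling by median-of-ratios size factors in place of the total gave 3019 genes higher and 3004 lower in Ctrl villi, where the total gave 1011 and 5795, and put every one of the 9 members but Smad7 past the fold there. In Gli1-PtgscKO villi it gave 1836 and 1765 genes, where the total gave 846 and 3425, with Smad7 higher and Bmp7 lower.

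Bmp7 and Bmpr1a were the members below crypts in villi of both genotypes. Bmp7 had 20.4 and 19.7 RPM in Ctrl crypts, 25.1 and 18.8 in Gli1-PtgscKO crypts, 1.65 in Ctrl villi and 2.80 and 1.04 in Gli1-PtgscKO villi. Every villus library was below every crypt library, by -2.99 in Ctrl and -3.03 in Gli1-PtgscKO on the log2 scale, and by -1.80 and -2.38 after the correction for length. Bmpr1a had 151.7 and 151.9 RPM in Ctrl crypts, 103.6 and 163.0 in Gli1-PtgscKO crypts, 21.2 in Ctrl villi and 60.3 and 50.1 in Gli1-PtgscKO villi. The difference was -2.78 in Ctrl and -1.23 in Gli1-PtgscKO, and -1.06 and -0.58 after the correction. Without crypt replicate 2 the Gli1-PtgscKO value was -0.90, no longer past the fold. Relative to the median of all genes on the uncorrected scale, Bmpr1a stood at -1.72 in Ctrl and -0.66 in Gli1-PtgscKO.

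Id1 and Id3 were higher in Ctrl villi than in Ctrl crypts. Id1 had 55.1 and 42.7 RPM in Ctrl crypts and 104.8 in Ctrl villi, a log2 difference of 1.10 that was 0.91 without Ctrl crypt replicate 2, and Id3 had 72.7 and 68.4 in crypts and 135.8 in villi, a difference of 0.94. In Gli1-PtgscKO, Id1 had 134.2 and 46.5 in crypts and 94.7 and 94.8 in villi, and Id3 had 145.5 and 58.1 in crypts and 100.3 and 104.6 in villi. There, crypt replicate 1 lay above both villus libraries and replicate 2 below, with mean differences of 0.26 for Id1 and 0.15 for Id3. Without that crypt library the difference of Id1 in Gli1-PtgscKO was 1.01, and without crypt replicate 2 it was -0.50. After the correction for length Id1 was 0.90 higher in Ctrl villi and 0.58 in Gli1-PtgscKO villi, and Id3 0.87 and 0.53. Id2 differed by 0.23 in Ctrl and 0.22 in Gli1-PtgscKO, or 0.67 and 0.73 after the correction. Its Gli1-PtgscKO libraries overlapped, with 46.1 and 30.1 RPM in crypts and 45.8 and 41.9 in villi, and the difference there was 0.52 without crypt replicate 1 and -0.07 without replicate 2.

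On the RPM scale, Smad6, Ihh and Bmp2 varied less over the libraries than most genes. The spread was computed on this scale only. With median-of-ratios size factors, Ctrl villi were above Ctrl crypts by 1.37 for Smad6, 1.30 for Ihh and 1.14 for Bmp2 on the log2 scale. Over the 7 libraries Smad6 ranged from 17.6 to 25.04 RPM, Ihh from 57.3 to 79.97 and Bmp2 from 9.62 to 15.8. The SD of log2 RPM was 0.16 for Smad6, 0.17 for Ihh and 0.22 for Bmp2, where the median over all genes was 0.65, and 98.4%, 97.8% and 94.9% of genes had a larger one. Smad7 ranged from 20.1 to 35.6 RPM, with an SD of 0.32. It had 20.1 and 20.6 RPM in Gli1-PtgscKO crypts and 35.6 and 31.4 in Gli1-PtgscKO villi, which do not overlap. At the other end Bmp7 had an SD of 1.63 and Bmpr1a one of 1.07, larger than in all but 2.0% and 16.2% of genes. Ihh stood at 0.15 in Ctrl and 0.03 in Gli1-PtgscKO, Bmp2 at -0.01 and 0.27, Smad6 at 0.21 and -0.04, and Smad7 at -0.20 and 0.69 on the log2 scale, villus minus crypt. The correction for length, which brings the median of all genes to about 0, placed all 4 above it in both genotypes, with Ihh at 0.82 and 0.57, Bmp2 at 1.14 and 0.92, Smad6 at 1.11 and 0.55, and Smad7 at 1.15 and 1.34.

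**Figure D4:**
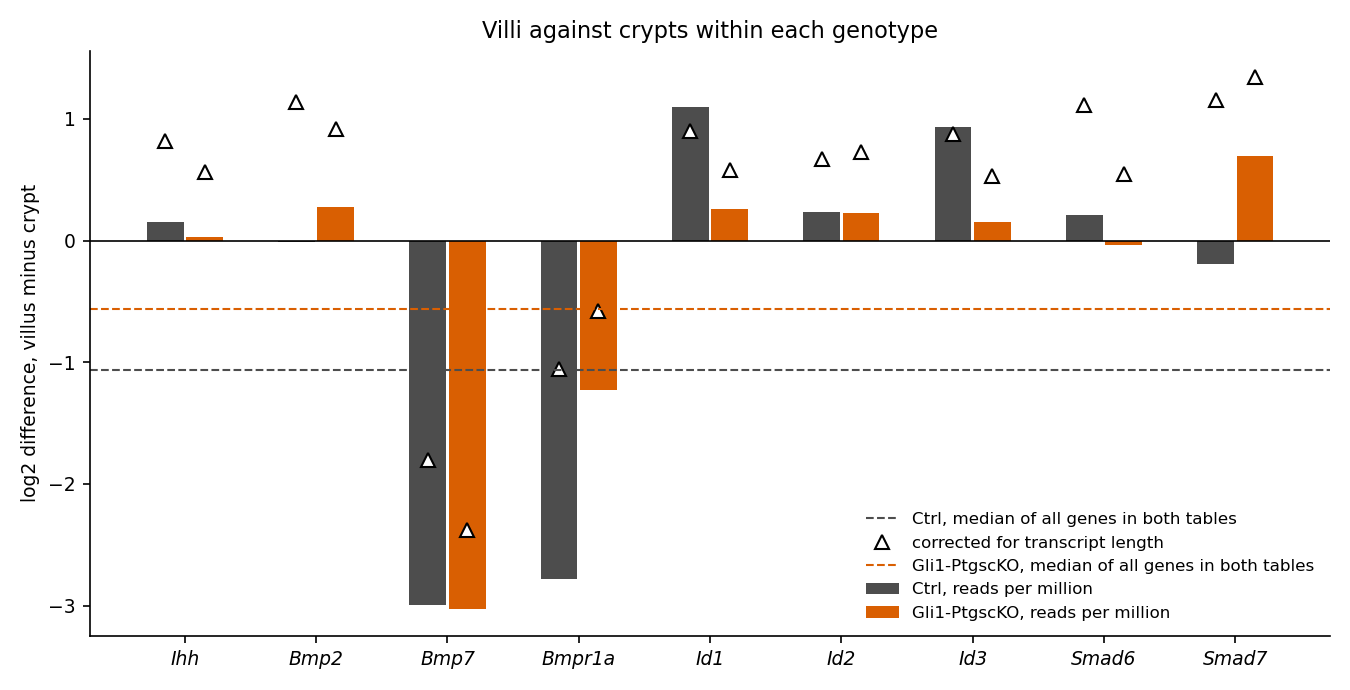
Log2 difference in RPM, villus minus crypt, of the 9 genes in both tables (bars, Ctrl in grey and Gli1-PtgscKO in orange), with the value after the correction for transcript length (triangles) and the median of all 11227 genes (dashed lines at -1.06 and -0.56). Bmp7 and Bmpr1a are below the median in both genotypes and the other 7 genes are above it.

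The genes with the most similar pattern to Ihh over the 7 libraries, by the root mean square difference of centred log2 RPM, were Tab1 (0.06), Mgat1 (0.08) and Dcaf15 (0.09) out of 11226 compared. Those most like Id1 were Cox5a (0.11), Rpl36a (0.12) and Svbp (0.13), and Id3 was the 12th most similar at 0.19, whereas Id2 ranked 481st at 0.39. The libraries share their scaling and their differences by transcript length, so a likeness is a description.

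Most other pathway genes were lower in Ctrl villi than in Ctrl crypts on the RPM scale, before the correction for length. Of the 33 in both tables, 24 were past the fold lower and none was higher in Ctrl villi, beside 51.6% and 9.01% of all genes, with a median of -2.01 beside -1.06. In Gli1-PtgscKO villi 13 were lower and 1 was higher, beside 30.5% and 7.54%, with a median of -0.72 beside -0.56. By list, 6 of 8 other BMP receptors, 3 of 8 signal transducers, 3 of 3 antagonists and 8 of 9 hedgehog receptors and transducers were lower in Ctrl villi. Of the 9 mesenchymal markers in both tables, 8 were also past the fold lower in Ctrl villi, with a median of -2.04. In Gli1-PtgscKO villi all 9 were, with a median of -1.77. The part of mesenchymal RNA in the values of the pathway genes was not tested. Rgmb, a BMP co-receptor, had 140.8 and 156.2 RPM in Ctrl crypts and 6.81 in Ctrl villi, and 118.3 and 145.2 in Gli1-PtgscKO crypts against 17.9 and 13.4 in villi. Smo, the hedgehog transducer, had 50.3 and 33.9 in Ctrl crypts and 2.75 in Ctrl villi, and Ptch1 had 36.4 and 36.0 against 1.99. Twsg1, an extracellular BMP-binding protein, had 82.1 and 75.9 against 7.15, and Fstl1 26.3 and 15.7 against 3.03. The ligand Bmp3 had 57.7 and 64.9 against 8.12. After the correction for length the differences in Ctrl were -2.58 for Rgmb, -2.28 for Smo, -1.40 for Ptch1, -1.99 for Twsg1, -1.19 for Fstl1 and -0.94 for Bmp3. For Bmpr2, Smad5, Id4 and Hhat, which stood at -2.91, -2.105, -1.76 and -1.60 before it, they were -0.54, -0.28, -0.52 and -0.57. For Bambi and Gas1 they were -1.36 and -2.02. The counts of genes past the fold were not repeated for these lists with the correction.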

How the data were processed

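The authors sequenced RNA of crypts and villi of the small intestine and aligned reads to mm10 with STAR, counted them per gene and compared groups with DESeq2. The deposited signal of a library is its gene count divided by its DESeq2 size factor, with the authors' fold changes and p-values beside it, which were not used. The labels and the methods name different library kits, and the counter, its strand setting and the annotation are not given in the sources used here. All deposited signal values were whole multiples of 1 read to within 1e-06 reads, with 1 read taken from the spacing of the values, which gave the reads per library. Genes below a mean of 48.4 (crypts) or 8.82 (villi) are not in the tables.

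The 10 genes, the pathway lists and the tests were chosen with earlier results of these data known. Named are the members, the deleted and driver genes, pathway genes called in crypts, up to 3 per pathway list with the largest villus minus crypt difference past the fold in both genotypes, and the 3 genes most like Ihh and Id1. Crypts were compared with limma-trend on log2(signal + 1) over the whole table (mean of at least 1; R 4.3.3, limma 3.58.1), with Benjamini-Hochberg adjustment. The added 1 understates fold changes of low genes. Villi and the change from crypt to villus have no test. The methods call the replicates biological, and how many animals gave each is not stated, so p-values measure the spread between these libraries. Lengths are of the longest GENCODE M21 transcript, and the length correction used lowess (span 0.3, statsmodels 0.14.6). The fits were tested on simulated data, which held no differences by transcript length and no library that stood apart, so that test does not cover these features. Alternatives were DESeq2 1.42.0 and edgeR 4.0.16 (quasi-likelihood, TMM) on the recovered reads, other scalings, filters and pseudocounts, the length correction, a replicate block and leaving out each library.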

Additional observations from a re-analysis of the deposited data

Results flagged for a closer look

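For 2 members the Gli1-PtgscKO libraries lay on opposite sides of Ctrl in crypts and in villi. Ihh had a log2 fold change of 0.24 in crypts and a log2 difference of -0.39 in villi, and Smad7 had -0.14 in crypts and 0.28 in villi. The difference between the tissues was not tested, since Ctrl villi are 1 library. Of the 2343 genes in both tables whose genotypes did not overlap in crypts, 62.0% lay on the opposite side in villi. The libraries that stood apart by transcript length were a Gli1-PtgscKO library in crypts and the Ctrl library in villi, and their part in these values was not tested.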

How the results depend on the processing

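No member was called in crypts under the main settings or any other setting with all 4 libraries. In crypts, 20 genes were higher and 1 was lower at the study's threshold. The lower count was 4 with scaling by library size alone and 4 with the length correction. Leaving out 1 library gave 15 to 593 genes higher, 3 to 288 lower, 0 to 1987 at an adjusted p under 0.05 and 0 to 2 members called. The highest counts are without Gli1-PtgscKO replicate 2. Without 1 library the log2 fold changes ranged from -0.039 to 0.46 for Bmp2, -0.083 to 0.46 for Bmp7, -0.42 to 0.11 for Bmpr1a, -0.050 to 1.60 for Id1, -0.058 to 0.68 for Id2, -0.27 to 1.18 for Id3 and -0.0061 to 0.075 for Smad6. Ihh (0.08 to 0.40) and Smad7 (-0.19 to -0.08) kept their direction. Bmpr1a turned to 0.021 with the length correction and Smad6 to -0.038 with scaling by library size. In villi, library size alone gave 3208 genes higher and 296 lower past the fold and 1 member (Bmpr1a), the length correction gave 633 lower, and leaving out 1 Gli1-PtgscKO library gave 1 to 2 members, 1698 to 1810 genes higher and 1145 to 1382 lower. Bmp4 is among them on either side, and Bmpr1a without replicate 2. From crypt to villus in Ctrl, median-of-ratios size factors gave 3019 genes higher, 3004 lower and 8 members past the fold, the length correction 2318, 2272 and 5, and leaving out 1 library 2 to 3 members, with Id1 lost without Ctrl crypt replicate 2. In Gli1-PtgscKO these gave 1836 higher and 1765 lower, 1676 and 1507, and 1 to 3 members, with Bmpr1a lost without crypt replicate 2. The cause of these changes was not tested.

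The replicate numbers of the labels were used as a block only here, since nothing says that a number marks a shared litter or day. Same-numbered crypt libraries deviated from their group means together, with a correlation of 0.25 across genes. In a group of 2 libraries the deviations are equal and opposite, so the 2 pairs give the same value and count as 1 comparison. With the replicate block 63 genes were higher, 15 lower and 34 had an adjusted p under 0.05, none of them a member at the threshold. Id1 had an unadjusted limma p of 0.0094 there (adjusted p = 0.95), but its log2 fold change of 0.78 was short of the threshold. On the recovered crypt reads, DESeq2 gave 60 genes higher, 5 lower and 11 at an adjusted p under 0.05, and edgeR 21, 3 and 0. Neither called a member or turned the direction of one. For Id1 both gave a log2 fold change of 0.99, with an unadjusted p of 0.032 in DESeq2 and 0.089 in edgeR.

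Genes that are not listed cannot be seen, among them Bmp4 in crypts and most antagonists. The rule by which genes were listed is not given in the sources used here. In villi Bmp4 and Bmp7 rest on 3 to 44 reads a library.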
